A study of Mus musculus with 3 samples.

Results

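A set of 9 genes of the fibroblast extracellular space were followed in cultured cardiac myofibroblasts, namely Dpt, Cilp, Fndc5, Abi3bp, Ptn, Pi16, Clec3b, Smoc2 and Svep1. They are 9 of the 15394 genes that had a probe well above background on 1 array or more, and all 9 passed that filter. Dpt, Cilp, Fndc5, Abi3bp and Ptn were selected on their measured pattern over these same arrays, so their values are descriptions. The other 4 genes were added as genes of resting fibroblasts, with earlier results of these data known. Not all 9 were higher in suspension, and Fndc5 and Ptn do not encode structural matrix proteins, so the genes are named individually here.

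The cells came from hearts of male C57BL/6J mice removed on day 3 of an infarct made by tying off the left anterior descending coronary artery for good. The labels give the age as 8 weeks in the sample characteristics and 10 weeks at ligation. The hearts were digested with collagenase and elastase, the cells were left to attach overnight, and cells carrying CD45, a leukocyte surface protein, were removed magnetically. Adherent cells had grown on plastic plates. Non-adherent cells had then been kept in suspension, and re-adherent cells had been plated again afterwards, with the aim of comparing gene expression with and without mechanical support. Each state had 1 one-colour Agilent mouse array of RNA mixed from hearts of several plates, so there was no replicate, no test and no p-value. The 3 states were collected one after another, so state and time in culture cannot be told apart.

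Resting fibroblasts sit in a soft matrix and secrete small proteins that organise collagen fibrils, bind growth factors or restrain proteases. After injury and on stiff surfaces, fibroblasts become myofibroblasts, which build contractile actin bundles and deposit collagen. Dpt and Pi16 are widely used as marker genes of a resting fibroblast population around vessels and in interstitial tissue.

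Values are background-corrected spot signals in intensity units. Differences are on the log2 scale, after each array was scaled to its 75th percentile, and a difference over 4-fold (above 2 or below -2 on that scale) is the limit used for counts. The ± after a difference is the technical error that the feature extraction software assigned to both spots, which leaves out any spread between cultures. Its median was 0.20 in each pair of arrays. The 75th percentile of the adherent, the non-adherent and the re-adherent array was 651, 697 and 541 units. A spot counted as well above background by the flag of the software, down to signals of 16.8, 14.0 and 18.3 units in that order.

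In suspension, 6 of the 9 genes were over 4-fold higher than in adherent cells (Dpt, Cilp, Fndc5, Abi3bp, Pi16 and Clec3b) and 0 were over 4-fold lower. Over all 15226 genes of that pair, 7.7% were over 4-fold higher and 5.33% over 4-fold lower. After re-adhesion, 5 of the 9 were over 4-fold lower than in suspension (Dpt, Cilp, Fndc5, Ptn and Pi16) and 0 were higher, beside 6.16% lower and 5.55% higher over all 15122 genes. Both steps together, up and then down over 4-fold, were met by 4 of the 9 (Dpt, Cilp, Fndc5 and Pi16), beside 4.42% of 14954 genes. Because the selected genes were chosen by these contrasts, nothing is read from their counts. Of the 4 genes that were not selected for their pattern, 2 (Pi16 and Clec3b) were over 4-fold higher in suspension and 2 (Smoc2 and Svep1) were lower by less than 4-fold. Both steps use the non-adherent array, so they are not independent of each other.

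**Figure D1:**
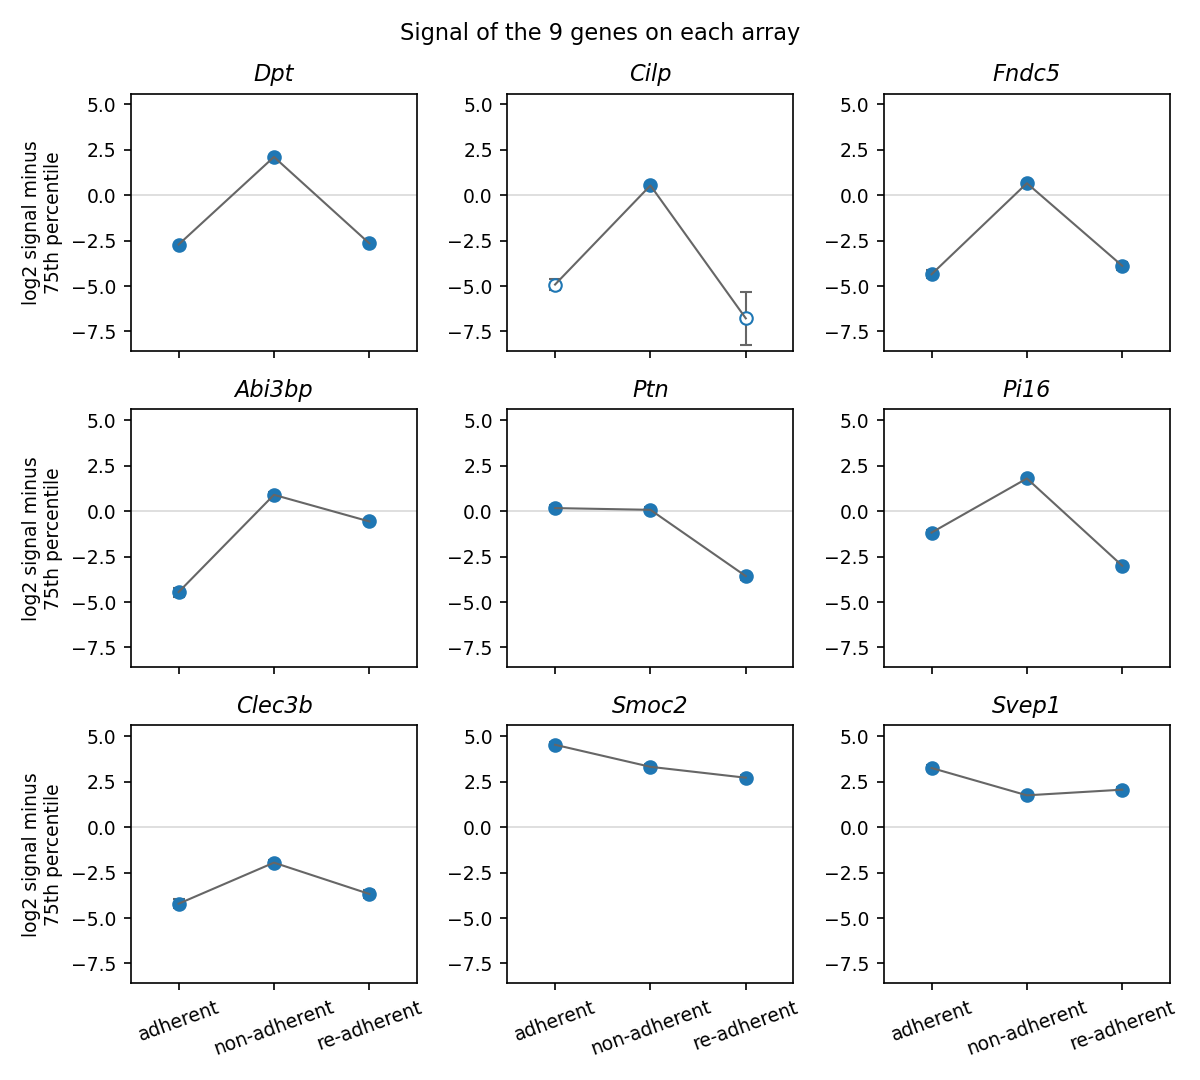
Level of each of the 9 genes in the 3 states, as log2 signal minus the 75th percentile of the array, with the technical error of the software as bars. Filled points were well above background and open points (Cilp on 2 arrays) were not. Dpt, Cilp, Fndc5, Pi16 and Clec3b peaked in suspension, while Abi3bp stayed high after re-adhesion, Ptn was low only after re-adhesion, and Smoc2 and Svep1 were highest in adherent cells.

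Upstream sequence was read for the 6 genes with an entry in the RefSeq table (assembly GRCm38.p6). Those of Dpt, Pi16 and Fndc5 are printed as 3 of the 4 genes with an entry that were over 4-fold higher in suspension, and that of Svep1 as a gene that was lower. Each line gives the 250 bases before the annotated start, 5′ to 3′ on the strand of the gene. Dpt lies at chr1:164796413-164796662 on the plus strand, Pi16 at chr17:29318632-29318881 on the plus strand, Fndc5 at chr4:129136749-129136998 on the plus strand and Svep1 at chr4:58206597-58206846 on the minus strand. Capitals mark the letters of a TEAD motif (CATTCC) and a TATA box (TATAAA), which in Svep1 are both read on the opposite strand.
Dpt: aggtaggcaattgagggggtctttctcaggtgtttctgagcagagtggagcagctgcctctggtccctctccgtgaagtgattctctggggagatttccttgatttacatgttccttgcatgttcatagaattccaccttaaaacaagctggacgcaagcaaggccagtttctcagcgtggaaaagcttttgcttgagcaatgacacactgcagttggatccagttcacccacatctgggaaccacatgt
Pi16: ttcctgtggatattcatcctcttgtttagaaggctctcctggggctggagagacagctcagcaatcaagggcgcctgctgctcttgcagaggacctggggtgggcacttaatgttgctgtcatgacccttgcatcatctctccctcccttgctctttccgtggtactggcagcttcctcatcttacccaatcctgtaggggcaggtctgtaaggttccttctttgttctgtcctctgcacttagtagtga
Fndc5: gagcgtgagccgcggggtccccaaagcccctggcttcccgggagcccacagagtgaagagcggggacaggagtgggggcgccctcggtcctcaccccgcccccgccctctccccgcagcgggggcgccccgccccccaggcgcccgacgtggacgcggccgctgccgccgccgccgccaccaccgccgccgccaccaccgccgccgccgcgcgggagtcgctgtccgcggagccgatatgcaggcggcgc
Svep1: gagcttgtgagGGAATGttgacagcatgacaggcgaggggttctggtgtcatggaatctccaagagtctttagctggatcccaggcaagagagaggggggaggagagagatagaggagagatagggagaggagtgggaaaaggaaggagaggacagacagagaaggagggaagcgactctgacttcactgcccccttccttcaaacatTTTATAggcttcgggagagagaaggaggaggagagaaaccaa

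The window searched for motifs held 250 bases before and 50 after the start. TEAD is the DNA-binding partner of the YAP, TAZ and VGLL coactivators, and its motif was found in Svep1 only, at -239 to -234 from the start, and in 14.7% of all 32851 promoters. The exact letters TATAAA were found in Svep1 at -42 to -37 on the opposite strand and in Dpt at 13 to 18 after the start. They were present in 13.6% of all promoters. Other forms of the TATA box were not searched. The sequence before the start of Cilp, not printed here, holds tatataag, which was therefore not counted. None of the 6 promoters held the AP-1 motif (TGANTCA), the FOXO motif (TGTTTAC) or a CArG box, the motif of serum response factor, which were present in 7.81%, 3.65% and 1.63% of all promoters. Both strands were searched, and these motifs do not share letters in the sites found.

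Most of the 6 promoters were of middling composition. The GC content over the whole window was 48.67% for Dpt, 55.67% for Cilp, 53.33% for Pi16, 52.00% for Ptn and 54.33% for Svep1, near the median of 52.67% over all promoters. Fndc5 differed from these with 82.33%, above 99.58% of all promoters, and with 48 CG dinucleotides against 3 in Pi16, 4 in Dpt and Cilp, and a median of 7. Dpt and Fndc5 thus had unlike promoters. Both were selected for their pattern on these arrays, so nothing is read from their similar differences between the 3 arrays.

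Dpt encodes dermatopontin, a small tyrosine-rich protein that binds decorin and speeds collagen fibril assembly. Its signal was 99.1 in adherent, 3002 in non-adherent and 86.2 in re-adherent cells. It was thus high only in suspension, by 4.82 ± 0.067 (28.3-fold) over adherent cells, and differed by -4.76 ± 0.070 (27.1-fold) after re-adhesion. With a normexp background correction, which raises dim signals, these differences were 4.13 and -3.98. The re-adherent signal differed from the adherent one by 0.06 ± 0.073, with the sign depending on the scaling, from -0.41 to 0.15. The probe was spotted 10 times on each array, which gave a check of the measurement within arrays: spots ranged from 88.4 to 122.8 in adherent, from 2769 to 3172 in non-adherent and from 75.5 to 98.2 in re-adherent cells (9 usable spots there). No spot of the non-adherent array overlapped those of the other arrays, and the difference over the 10 pairs of spots was 4.82 ± 0.16 (SD), from 4.56 to 5.05.

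Cilp encodes cartilage intermediate layer protein, a secreted matrix protein that binds TGF-β1 and limits IGF-1 signalling. Its signal was 21.5 in adherent and 4.93 in re-adherent cells, neither well above background, and 1012 in non-adherent cells. Only a bound can therefore be given: the signal was at least 43.9-fold higher in suspension than in adherent cells and at least 42.9-fold higher than in re-adherent cells. These bounds hold for the scaling and background used here. The log2 differences were 5.23 in suspension with spike-in scaling, and 3.38 in suspension and -3.66 after re-adhesion with normexp, all smaller than the bounds. Adherent and re-adherent cells were both below detection and were not compared.

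Fndc5 encodes the membrane protein from which irisin is released, and it is best known from muscle. Its signal was 31.9 in adherent, 1101 in non-adherent and 36.6 in re-adherent cells. It was higher in suspension by 5.01 ± 0.26 (32.3-fold) and differed by -4.55 ± 0.26 (23.4-fold) after re-adhesion. With normexp these were 3.57 and -3.27. Adherent and re-adherent signals differed by 0.47 ± 0.30, and under scaling to the spike-in probes that difference turned to -0.011.

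Abi3bp encodes a secreted protein that binds the SH3 domain of the adaptor Abi3 and is found in the matrix of several tissues. Its signal was 29.8 in adherent, 1303 in non-adherent and 366 in re-adherent cells. It stayed above its adherent level: higher by 5.35 ± 0.29 (40.9-fold) in suspension, it differed by only -1.47 ± 0.20 (2.76-fold) after re-adhesion and stayed 3.89 ± 0.29 (14.8-fold) above the adherent level. With normexp the rise in suspension was 3.69 and the difference of re-adherent from adherent cells 2.19, still over 4-fold. In re-adherent against adherent cells it ranked 3rd highest of 13689 genes well above background on both arrays.

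Ptn encodes pleiotrophin, a heparin-binding growth factor with the receptor Ptprz1. Its signal was 733 in adherent, 735 in non-adherent and 45.5 in re-adherent cells. The adherent and non-adherent levels differed by less than the technical error (-0.10 ± 0.20, with the sign depending on the scaling, from -0.32 to 0.0037) and low only after re-adhesion, by -3.65 ± 0.24 (12.6-fold) from suspension and -3.75 ± 0.24 (13.4-fold) from adherent cells. With normexp these were -2.53 and -2.62. A different probe for the same transcript gave 413, 481 and 31.8, with differences of 0.12, -3.56 and -3.43, and so the same pattern. Among the 13689 genes well above background on both arrays, Ptn had the lowest difference of re-adherent from adherent cells.

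**Figure D2:**
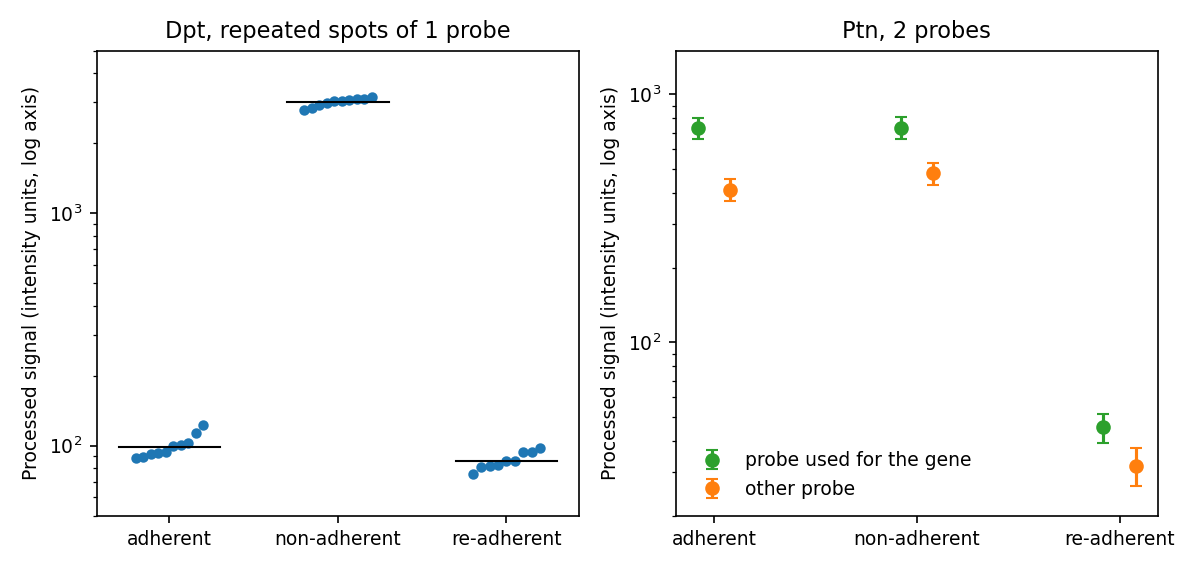
Processed signal, in intensity units on a log axis, of each usable spot of the Dpt probe (left, bars are geometric means) and of both Ptn probes (right, bars are the technical error of the software) on the 3 arrays. Dpt spots of the non-adherent array lie between 2769 and 3172, far above the other arrays, and both Ptn probes are low only on the re-adherent array.

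Pi16 encodes peptidase inhibitor 16, a cell-surface protein of the CAP family that marks adventitial fibroblasts. Its signal was 288 in adherent, 2431 in non-adherent and 67.6 in re-adherent cells. It was higher in suspension by 2.98 ± 0.20 (7.89-fold) and differed by -4.81 ± 0.22 (28.0-fold) after re-adhesion, which left it -1.82 ± 0.22 (3.54-fold) below the adherent level. With normexp the difference was -3.94 after re-adhesion and -1.17 from adherent cells. Clec3b encodes tetranectin, a secreted lectin that binds plasminogen. Its signal was 35.1, 180 and 42.4 in the same order, so it was higher in suspension by 2.26 ± 0.28 (4.79-fold) and differed by -1.72 ± 0.27 (3.30-fold) after re-adhesion. This was the weakest of the 6 rises past the limit, and with a normexp background correction the rise was 1.22, under the limit. The Clec3b difference after re-adhesion was -0.74 with normexp and -2.09, past the limit, without scaling.

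Smoc2 encodes a calcium-binding matricellular protein of the SPARC family. Its signal was 15122 in adherent, 6977 in non-adherent and 3577 in re-adherent cells, so it was lower at each step, by -1.21 ± 0.20 (2.32-fold) and -0.60 ± 0.20 (1.52-fold). The spots around the Smoc2 spot were themselves brighter after re-adhesion than in suspension, with a median difference of 1.24 against 0.35 over all spots. The part of this local shift in the Smoc2 value was not tested. Svep1 encodes a large secreted adhesion protein that binds integrin α9β1. Its signal was 6239, 2351 and 2267 in the same order, lower in suspension by -1.51 ± 0.20 (2.84-fold) and at 0.31 ± 0.20 after re-adhesion, a difference that was -0.052 without scaling. Neither gene was higher in suspension, in contrast to Pi16 and Clec3b.

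Re-adherent cells did not return to the adherent values for every gene. Of the 8 genes that could be compared, 1 (Abi3bp) was over 4-fold higher and 1 (Ptn) over 4-fold lower than in adherent cells, beside 1.38% higher and 1.34% lower over all 14732 genes. Dpt, Fndc5 and Clec3b were within 0.54 of the adherent level. Pi16 and Smoc2 lay just inside the limit, at -1.82 and -1.81, and passed it without scaling and under spike-in scaling (Smoc2 -2.08 and -2.29, Pi16 -2.09 and -2.30). Pi16 also passed it, barely, with the authors' values (-2.0009). Svep1 was lower by -1.19 ± 0.20.

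The order of the genes among all genes well above background on both arrays of a pair places these values. For the rise in suspension, of 13996 genes, Abi3bp ranked 6th, Fndc5 12th, Dpt 16th, Pi16 270th and Clec3b 684th. For the fall after re-adhesion, of 13565 genes, Pi16 ranked 21st, Dpt 22nd, Fndc5 28th and Ptn 87th. Cilp was not ranked, because it was well above background on 1 array only. The median difference over the 9 genes was 2.98 in suspension and -3.65 after re-adhesion, against -0.07 and 0.07 over all genes. Dpt, Cilp, Fndc5, Abi3bp and Ptn were selected for their pattern on these arrays, so their ranks and this median are descriptions only. Over the 4 genes not selected for their pattern it was 0.52 and -1.16.

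**Figure D3:**
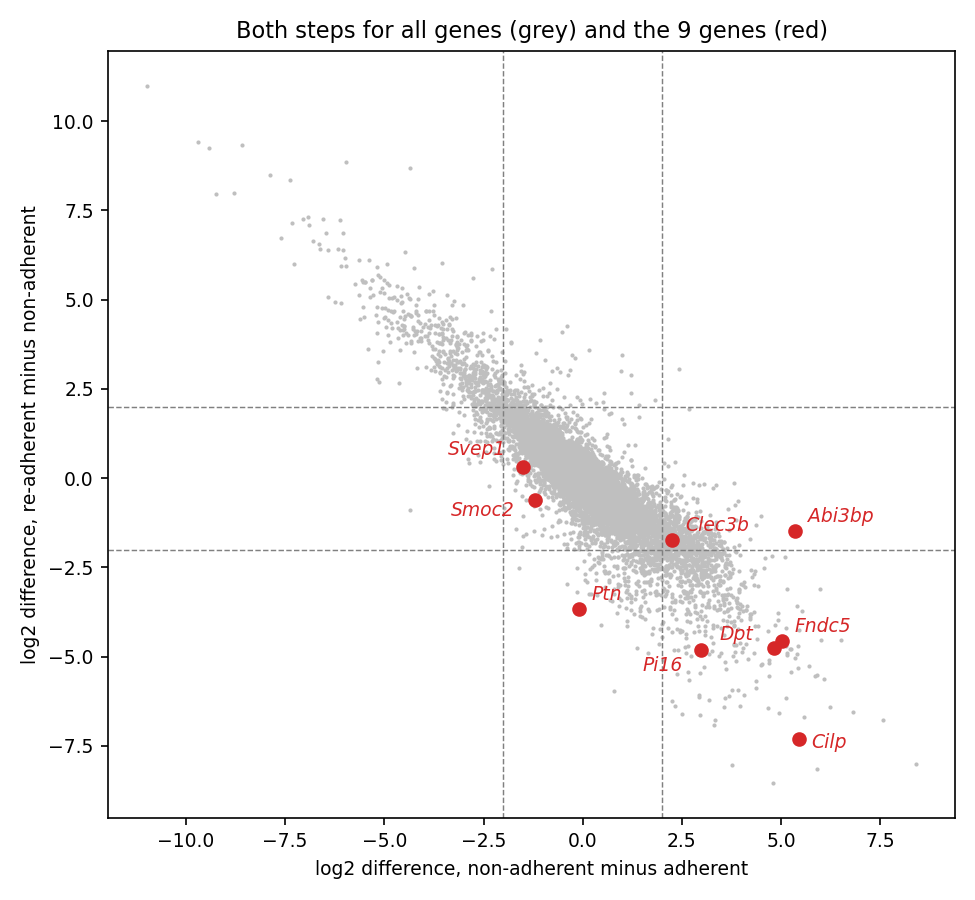
Log2 difference of non-adherent from adherent cells (x axis) and of re-adherent from non-adherent cells (y axis) for all genes measured (grey) and the 9 genes (red), with dashed lines at 4-fold. Dpt, Cilp, Fndc5 and Pi16 lie in the lower right corner, higher in suspension and lower again after re-adhesion, Abi3bp lies to the right above -2, and Ptn lies at -0.10 and -3.65. The place of Cilp rests on signals not well above background on 2 arrays. The non-adherent array enters both axes with opposite sign.

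The genes nearest in pattern were found by the Euclidean distance between both steps, over 3 arrays and 13479 genes well above background on all of them. Dpt and Fndc5, both selected for their pattern on these arrays, were each other's nearest gene, at a distance of 0.28. The next for Dpt were Krtap11-1 (0.44) and Strip2 (0.51), and for Fndc5 they were Itih4 (0.38) and Rgs1 (0.47). No neighbours are given for Cilp, whose differences are bounds. Ptn was nearest to Ccl5 (0.47), Ndufa4l2 (0.49) and Rbp4 (0.74). Abi3bp was nearest to Fcrls (0.028), P2ry12 (0.91) and Pld4 (1.48), genes known from microglia and macrophages.

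Markers of some other cell types, such as macrophages, were also higher in suspension, while 5 of 6 mesothelial markers were lower. Of 18 macrophage markers, 16 were measured (Cd68 had no named probe and Cd163 was not above background). Of the 16, 14 were over 4-fold higher in suspension, beside 7.7% over all genes. They included Mrc1, a mannose receptor (3.58), and Ptprc, which encodes CD45 (2.68). Their summed level, in multiples of the 75th percentile of the array, was 258 in adherent, 1643 in non-adherent and 541 in re-adherent cells. Lyve1 was not well above background in adherent and re-adherent cells, and Itgam was lower (-0.84). In re-adherent against adherent cells, 14 of 15 macrophage markers had a positive difference, and Cx3cr1 was higher by 4.62, beside 3.89 for Abi3bp. Among the 15 markers well above background on both arrays, 6 had a larger difference in suspension than Pi16 and 13 a larger one than Clec3b. For Dpt, Cilp, Fndc5 and Abi3bp that count was 0, but they were selected for their pattern, so nothing is read from it. The filter left out Lyve1 (3.27), while Cilp was kept though it was not well above background in adherent cells. With normexp 2 exceeded Cilp, 1 exceeded Fndc5, 7 exceeded Pi16 and 14 exceeded Clec3b. The part of macrophages in the members' values was not tested, and in bulk RNA more cells of a type and more RNA per cell cannot be told apart.

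Of 10 endothelial markers, 5 were over 4-fold higher in suspension, beside 7.7% over all genes, with a largest rise of 3.77 for Cldn5. Their median difference was -3.43 after re-adhesion and -1.99 in re-adherent against adherent cells. Tie1, Cldn5 and Emcn were not well above background in re-adherent cells. The summed level was 23.8 in adherent, 38.9 in non-adherent and 22.3 in re-adherent cells. The last of these sums rests mostly on Kdr, which differed by -0.35 in suspension and 0.74 after re-adhesion. In re-adherent against adherent cells Kdr differed by 0.39, while 9 of the 10 markers had a negative difference. Pericyte and smooth muscle (mural) markers summed to 52.6, 70.2 and 48.4, mostly from Mcam and Pdgfrb. Of these 8 markers, 5 had a positive and 3 a negative difference in suspension. Kcnj8 (4.21) and Abcc9 (2.49) rose most, and Des (-2.17) and Cspg4 (-2.06) fell most. Kcnj8 and Abcc9 were well above background in suspension only, and Rgs5 was not in re-adherent cells. Cardiomyocyte markers summed to 1.24, 2.07 and 3.39, with 7 of 9 measured and Ryr2 and Ttn not above background. The last cardiomyocyte sum rests mostly on Tnnt2. After re-adhesion, 5 of the 7 had a negative difference and 2 a positive one (Tnnt2 1.15 and Myl2 0.17), with a median of -0.78. Actc1, Tnni3 and Myl7 were not well above background in re-adherent cells. Schwann cell markers summed to 0.43, 0.62 and 0.62, and mesothelial markers to 3.91, 2.62 and 7.74. The part of these cell types in the members' values was not tested.

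Markers of the labelled cell type were present. All 10 general fibroblast markers were well above background on all 3 arrays, with summed levels of 1115, 895 and 842 (4 of them are also in the resting list below and 3 in the activated list). These sums are weighted to the brightest genes, such as Col1a2, and hide opposite moves. In suspension, 3 of the 10 were higher and 7 lower. Thy1 differed by -3.50 and then 3.27, Tcf21 by -1.75 and then 1.89, and Lum by 3.56 and then -6.41. All 6 myofibroblast markers were lower in suspension, from -5.49 for Tpm2 to -9.24 for Actg2, both contractile proteins, and their summed level was 1750 in adherent, 21.1 in non-adherent and 1730 in re-adherent cells.

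Other genes of resting and adventitial fibroblasts did not move as a block. Of 25 measured genes, 7 were over 4-fold higher and 3 over 4-fold lower in suspension, beside 7.7% and 5.33% over all genes. The median of the list was 0.14. Both steps together, up and then down over 4-fold, were met by 6 of them, beside 4.42% over all genes. The higher genes included Fbln1, which encodes fibulin-1 (3.73, then -4.01), and Lum, which encodes the collagen-binding proteoglycan lumican (3.56, then -6.41). The lower genes were Pcolce2, a procollagen processing enhancer (-2.64, then 2.61), Ogn, a small proteoglycan (-2.57, then 1.27), and Sema3c (-2.16, then 2.05). The 9 genes followed above and this list thus both held genes of either direction.

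Matrix genes of activated fibroblasts also held both directions. Of 17 measured, 2 were over 4-fold higher (Comp and Spp1) and 4 over 4-fold lower (Lox, Col8a1, Ccn2 and Tnc), beside 7.7% and 5.33% over all genes. The median of this list was -1.35. Lox, which encodes the collagen cross-linking enzyme lysyl oxidase, differed by -4.51 in suspension and 4.46 after re-adhesion. Comp, a cartilage matrix protein, went the other way (2.70, then -4.04), as Dpt and Cilp did. The difference between the lists was not tested, and with 1 array per state their counts describe these arrays only.

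**Figure D4:**
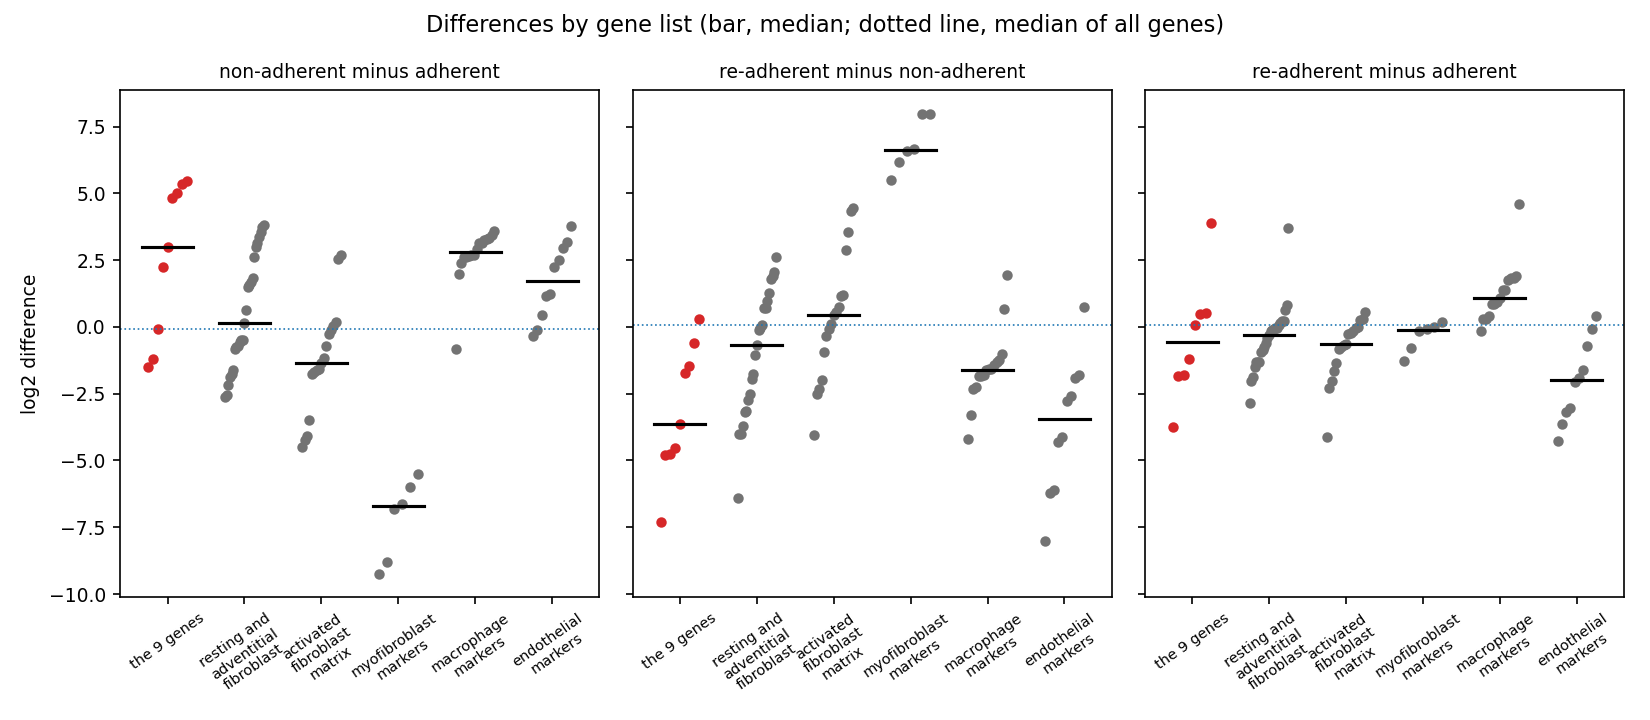
Log2 differences of single genes (points) in 6 lists for the 3 pairs of arrays, with the median of each list (bar) and of all genes (dotted line). The 9 genes (red) spread from -1.51 (Svep1) to 5.46 (Cilp, a bound) in suspension, macrophage markers have a median of 2.80, and all myofibroblast markers lie at -5.49 or lower. Values not well above background on 1 array of a pair are included.

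Relatives and partners of the 9 genes showed no shared direction. Of 9 genes listed as relatives, 6 were measured (Clec3a, Crisp1 and Crispld1 were not above background). In suspension, 1 was over 4-fold higher, Abi3 (2.40), and 0 were over 4-fold lower, beside 7.7% and 5.33% over all genes. Abi3 encodes the adaptor bound by Abi3bp and is a partner and not a relative. None of the other genes measured in that list was over 4-fold higher in suspension. Mdk, which encodes midkine and is the closest relative of Ptn, differed by 0.89 in suspension, -2.71 after re-adhesion and -1.82 in re-adherent against adherent cells. Of 19 binding partners and receptors, 17 were measured (Alk and Plg were not above background). Over 4-fold, 3 were higher in suspension (Tie1, Igf1 and Tgfb1) and 2 lower (Ptprz1 and Igf1r), beside 7.7% and 5.33% over all genes. Igf1 and Tgfb1, which encode ligands that Cilp binds or restrains, differed by 2.93 and 2.05, and the receptor gene Igf1r by -2.26. Ptprz1, the receptor gene of pleiotrophin, was not well above background in suspension. Itga9 and Itgb1, which encode the integrin bound by Svep1, differed by 0.01 and -1.35.

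**Figure D5:**
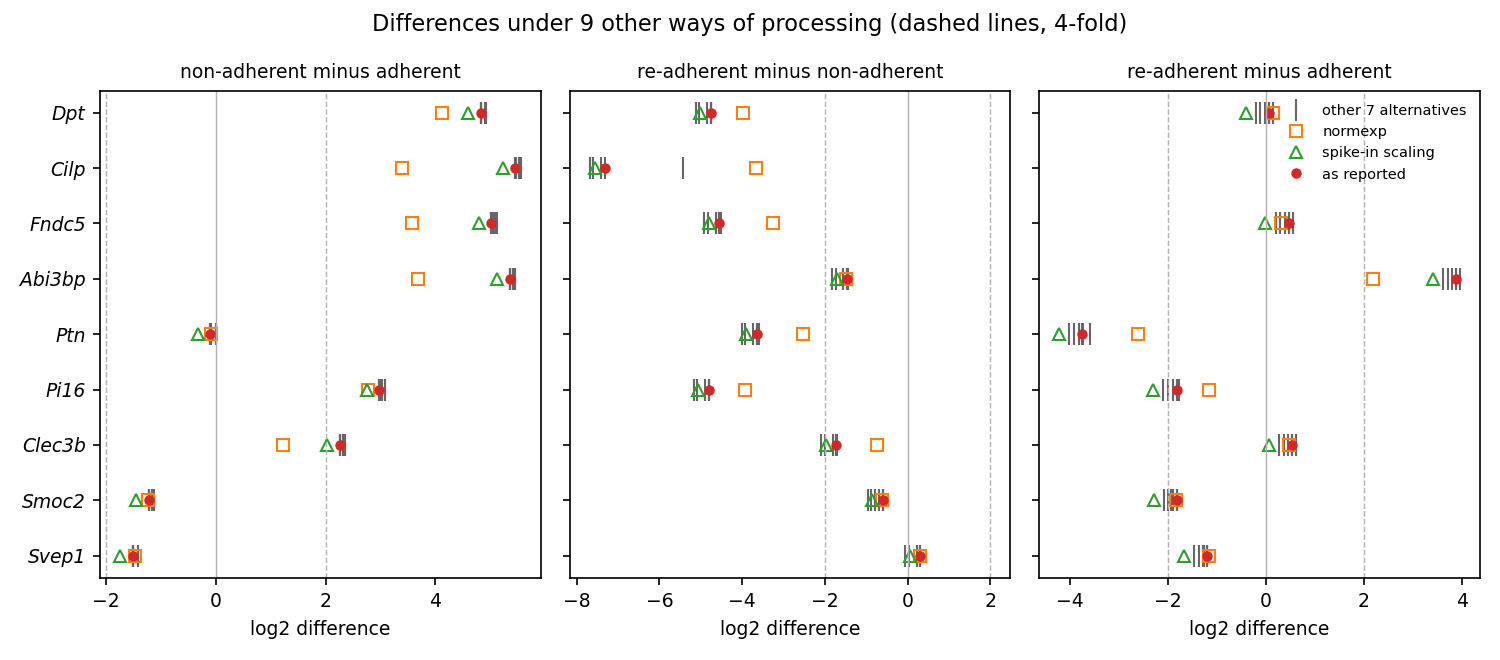
Log2 difference of each of the 9 genes in the 3 pairs of arrays as reported (red) and under 9 other ways of processing, with normexp background correction (orange squares) and spike-in scaling (green triangles) marked and dashed lines at 4-fold. The normexp correction moved the dim genes most, to 3.38 for Cilp and 1.22 for Clec3b in suspension. Differences near 0 turned sign for Svep1 after re-adhesion for Fndc5 and Dpt in re-adherent against adherent cells and for Ptn in suspension.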

How the data were processed

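Gene expression was measured with Agilent SurePrint G3 mouse arrays, 1 per state, on the same slide and in the same scan per the file headers. The authors deposited Feature Extraction 10.10.1.1 output with background-corrected intensity values per spot. Their series table, also intensity, equalled this signal times 1 constant per array (1.52, 1.52 and 1.62) and was used as an alternative. It is not stated which normalization gave these constants.

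Flagged outlier spots (154, 180 and 175 of 59305) were left out. The log2 of the deposited intensity was taken relative to the 75th percentile of its array. Probes were named by RefSeq transcript (27235 of 55681 probes). A gene was kept when 1 or more arrays had a probe well above background, and its brightest probe was used. A fold against a dim signal is a bound, taken against that signal or the lowest one well above background, whichever was higher.

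With 1 array per state no test was run, and the number of arrays sets the precision. The fold limit was 4. All 9 genes are named, with the 3 genes nearest in pattern to each selected gene except Cilp, and list members by extreme change. Genes named beyond this were chosen after their values were seen. The members and lists were chosen with earlier results of these data known. Alternatives were 9 other settings and fold limits of 2 and 16. The normexp correction (offset 50) used the median spot signal in place of the mean. R 4.3.3, limma 3.58.1, Python 3.11.15, numpy 2.4.6, pandas 2.3.3 and matplotlib 3.10.9 were used. The scripts were tested on simulated data. Promoters came from RefSeq (32851 windows, 27025 genes). Abi3bp, Clec3b and Smoc2 were not among the entries used, and protein sequences were not analysed here.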

Additional observations from a re-analysis of the deposited data

How the results depend on the processing

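No paired analysis was possible because there was 1 array per state, and for the same reason no replicate could be left out. The counts over 4-fold in suspension and after re-adhesion and the count of genes that met both steps stayed within 1.5 times under every alternative run. In re-adherent against adherent cells the count of genes over 4-fold was 2. That count was 3 with the authors' values, 4 without scaling, 4 with spike-in scaling, 5 at a 2-fold limit and 0 at a 16-fold limit. The median of the 9 genes in suspension was 2.98, against 2.77 with normexp, 2.75 with spike-in scaling and 2.62 when a probe had to be well above background on all 3 arrays, which removes Cilp. After re-adhesion it was -3.65, against -2.53 with normexp, -3.93 with the authors' values, -4.01 without scaling, -3.90 with spike-in scaling and -2.69 with the stricter filter. In re-adherent against adherent cells it was -0.56 over the 8 genes without Cilp, against -0.83 without scaling and -1.04 with spike-in scaling. The cause was not tested, except that spike-in scaling shifts the median of all genes by -0.23, -0.25 and -0.48 in the 3 pairs, no scaling by -0.36 and the authors' values by -0.27 after re-adhesion. Among differences near 0, sign changed for Svep1 after re-adhesion (-0.052 without scaling), for Fndc5 (-0.011 with spike-in scaling) and Dpt (0.06, from -0.41 to 0.15 over the scalings) in re-adherent against adherent cells, and for Ptn in suspension (-0.10, against 0.0037 with the authors' values and 0.0143 with the mean over probes). Dim signals, as of Cilp on 2 arrays, limit the size of a fold.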
